A study of Homo sapiens with 6 samples.

Results

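The enzymes described here make serine, glycine, asparagine, cysteine and proline or carry the one-carbon units that serine gives to folate. They are 10 genes (ASNS, PHGDH, PSAT1, PSPH, SHMT2, MTHFD2, ALDH1L2, CTH, ALDH18A1 and PYCR1), chosen by name because each is known as a target of the transcription factor ATF4. The choice was made with earlier results of these data known. All 10 were present among the 11048 genes measured in every library. MM1.S, a human multiple myeloma cell line, was exposed for 6 h to 3 µM CCF642, to 3 µM CCF642-34 or to the DMSO vehicle, and mRNA was sequenced from 2 libraries of each group. CCF642 is an inhibitor of the protein disulfide isomerase PDIA1, an enzyme that forms disulfide bonds in the endoplasmic reticulum (ER), and CCF642-34 is its analogue, made for more selective PDIA1 inhibition. The experiment asked how far the gene expression programs that follow the 2 compounds differ.

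Cells that sense unfolded protein in the ER, a shortage of amino acids or oxidants phosphorylate the translation factor eIF2α, which lowers protein synthesis in general and favors translation of ATF4. ATF4 binds DNA with partners of the C/EBP family and raises genes for amino acid synthesis, amino acid uptake and tRNA charging. Myeloma cells secrete large amounts of immunoglobulin, which puts a steady load on protein folding in the ER. MYC, which myeloma cells often carry at high activity, is a further regulator of serine, nucleotide and proline synthesis genes.

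Each value is given as CPM, a gene's reads divided by the total of its library and scaled up by a constant. Fold changes are log2 differences of CPM after edgeR's TMM scaling (a trimmed mean of log ratios between libraries) and addition of a pseudocount of 1, a scale that understates changes of genes with few reads. Genes were called at a limma adjusted p under 0.05, by Benjamini-Hochberg over all 11048 genes, with the spread estimated from all 6 libraries. The libraries held 20567313 to 28459677 reads, totals that were estimated from the CPM values. Nothing in the sources states that the 2 libraries of a group came from separate cultures, so the p values measure the spread between libraries, which may be technical. The measurements come from bulk RNA, in which fewer cells of a kind and less RNA per cell cannot be told apart.

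The plasma cell identity of MM1.S was visible, with all 7 plasma cell markers looked for (SDC1, TNFRSF17, CD38, SLAMF7, IRF4, PRDM1 and XBP1) listed and a summed level of 4139 to 4209 CPM with DMSO, 4104 to 4147 CPM with CCF642 and 4332 to 4351 CPM with CCF642-34. The steady sum held markers that differed between groups in opposite directions, since in DMSO, CCF642 and CCF642-34 libraries the mean CPM of SDC1 was 860, 245 and 371 and that of TNFRSF17 was 166, 71.9 and 88.3, while that of IRF4 was 670, 1137 and 1356. The B cell markers MS4A1 and PAX5 were not listed, and neither was any of the 3 myeloid markers (CD14, LYZ and CSF1R). Of the 3 T cell markers only CD3E was listed, at 2.09 to 3.19 CPM over all libraries. Of the 3 stromal or endothelial markers, COL1A1 and PECAM1 were listed, with a sum of 3.48 to 4.63 CPM with DMSO, 11 to 11.7 CPM with CCF642 and 4.78 to 5.47 CPM with CCF642-34. This sum also held opposite directions. In DMSO, CCF642 and CCF642-34 libraries the mean CPM of COL1A1 was 1.29, 9.76 and 3.13, and that of PECAM1 was 2.76, 1.62 and 1.99. The higher sum with CCF642 thus came from COL1A1 alone. Every listed gene reached at least 1.505 CPM in some library, and COL1A1 with DMSO was at 1.09 and 1.495 CPM. COL1A1 was therefore listed only through its treated libraries. The part of RNA from other cells in the results below was not tested.

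With each compound the amino acid synthesis genes rose, except ALDH18A1, which fell. Against DMSO, CCF642-34 gave 9 of the 10 genes higher and 1 lower at an adjusted p under 0.05 (limma), while 29.7% of all genes were called higher and 27.9% lower. CCF642 gave the same count, 9 higher and 1 lower, where 31.8% of all genes were called higher and 31.3% lower. A fold change of at least 2 with p under 0.05 was reached by 8 of the 10 genes in the upward direction with CCF642-34, against 2.59% of all genes, and by 8 with CCF642, against 4.5% of all genes. None of the 10 fell that far, as 1.29% and 1.99% of all genes did with CCF642-34 and CCF642. PYCR1 was the gene that rose by less than 2-fold with both compounds. The median log2 change over the 10 genes was 1.59 with CCF642-34 and 1.58 with CCF642, and that over all genes was 0.01 and -0.01. Both comparisons used the same DMSO libraries, so they are not independent of each other. Because the 10 genes were chosen with earlier results of these data known, their counts beside all genes are a description. In the CPM of single libraries, the 2 libraries of each compound lay above both DMSO libraries for 9 genes and below them for 1, where 31.5% of all genes lay wholly above and 47.8% wholly below with CCF642-34, and 29.2% and 52.5% with CCF642.

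**Figure D1:**
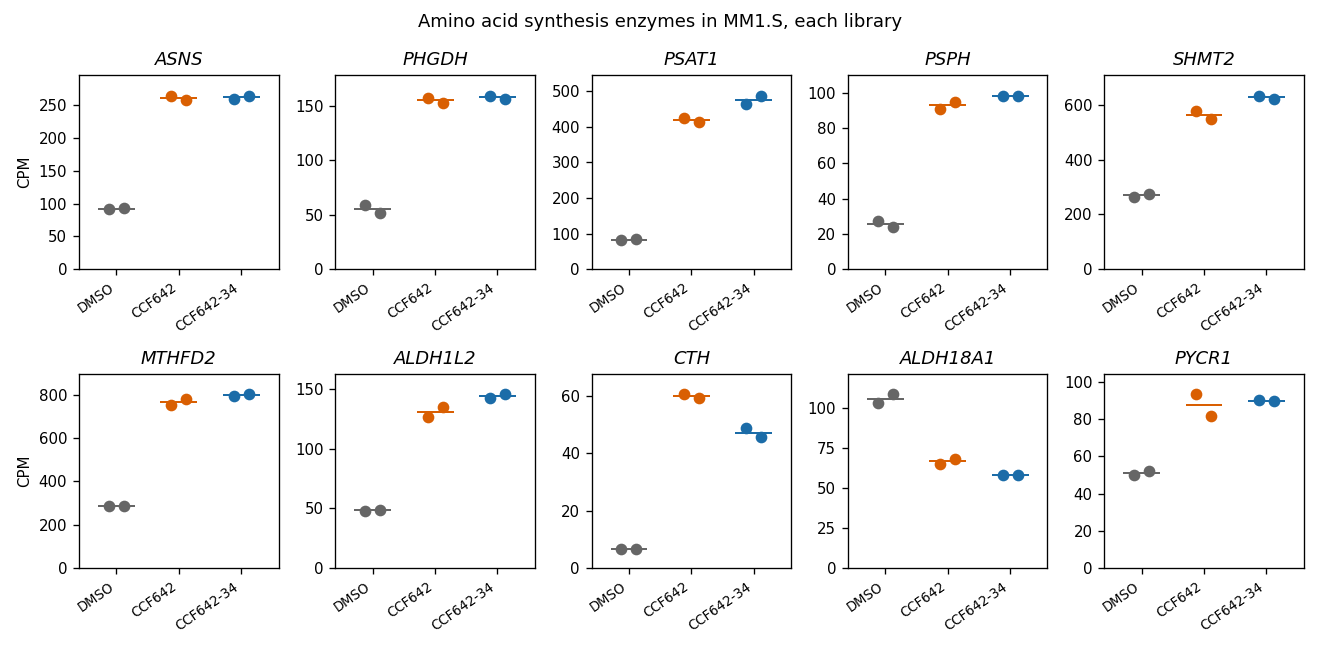
CPM (vertical axis, from 0) of the 10 amino acid synthesis genes in each of the 6 libraries, with 1 panel per gene, a point per library and a line at the mean of each group. The points of CCF642 and CCF642-34 sit above both DMSO points in 9 panels and below them in the ALDH18A1 panel.

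Together the 10 genes took 1020 and 1026 CPM with DMSO, 2610 and 2590 CPM with CCF642 and 2750 and 2767 CPM with CCF642-34. This was 0.102% and 0.103% of the reads with DMSO, 0.261% and 0.259% with CCF642 and 0.275% and 0.277% with CCF642-34. The reads behind a single value ran from 141, for CTH in a DMSO library, to 22645, for MTHFD2 in a CCF642-34 library.

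Serine is made from the glycolytic intermediate 3-phosphoglycerate in 3 steps, by PHGDH, PSAT1 and PSPH, and PSAT1 had the largest fold change of the 3. PHGDH, the dehydrogenase that opens the pathway, was at 58.8 and 51.5 CPM with DMSO, at 157 and 152 CPM with CCF642 and at 159 and 156 CPM with CCF642-34. All 4 treated libraries were high and close to each other. The log2 fold change was 1.59 (SE 0.055) with CCF642-34 and 1.61 (SE 0.055) with CCF642, with limma adjusted p of 7.54e-29 and 2.99e-29.

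PSAT1, the aminotransferase of the second step, moves nitrogen from glutamate to the serine skeleton. It was at 82.6 and 83.9 CPM with DMSO, at 423 and 414 CPM with CCF642 and at 464 and 487 CPM with CCF642-34. The groups did not overlap, and both CCF642-34 libraries were above both CCF642 libraries. PSAT1 rose by a log2 fold change of 2.59 (95% interval 2.5 to 2.67) with CCF642-34 and 2.45 (2.36 to 2.54) with CCF642, at limma adjusted p of 3.27e-42 and 1.66e-41. In mean CPM this was a ratio of 5.71 and 5.03. The 250 bases upstream of the PSAT1 start (chr9:78296875-78297124, plus strand, GRCh38.p14) are shown because PSAT1 had the smallest adjusted p of the 10 genes with each compound; no motif searched here was found in this window, so it is all in lower case.
PSAT1: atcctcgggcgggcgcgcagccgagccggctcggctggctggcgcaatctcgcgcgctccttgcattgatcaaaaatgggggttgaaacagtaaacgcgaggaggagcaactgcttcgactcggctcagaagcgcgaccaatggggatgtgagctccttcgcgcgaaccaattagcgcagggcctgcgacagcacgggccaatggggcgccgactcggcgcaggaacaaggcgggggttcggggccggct

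PSPH, the phosphatase that releases free serine, was at 27.4 and 23.7 CPM with DMSO, at 91.0 and 94.5 CPM with CCF642 and at 98.3 and 98.0 CPM with CCF642-34. It was low only in the DMSO libraries. The log2 fold change was 1.99 (SE 0.066) with CCF642-34 and 1.95 (SE 0.066) with CCF642, at limma adjusted p of 1.07e-29 and 1.47e-29. In GENCODE release 29, 6.82% of the 50-base stretches of PSPH exons occur in another gene, among them the pseudogene PSPHP1, and for PSAT1 the share was 4.62%, so part of their reads could have been assigned elsewhere. The shares were larger for ASNS at 64.4%, MTHFD2 at 34.6% (mostly with SLC4A5, a gene on the opposite strand), PYCR1 at 20.5% and SHMT2 at 8.79%, and that of ALDH1L2 was 1.70%. No such stretch was found for PHGDH, CTH or ALDH18A1.

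In mitochondria, SHMT2 splits serine into glycine and a one-carbon unit on tetrahydrofolate, MTHFD2 oxidizes that unit, and ALDH1L2 can burn it to carbon dioxide with production of NADPH. All 3 genes rose with both compounds. SHMT2 was at 265 and 273 CPM with DMSO, at 578 and 548 CPM with CCF642 and at 634 and 622 CPM with CCF642-34. Its 3 groups did not overlap, and CCF642-34 was the highest. The log2 fold change was 1.31 (SE 0.039) with CCF642-34 and 1.2 (SE 0.039) with CCF642, at limma adjusted p of 1.61e-31 and 4.34e-30.

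MTHFD2 was at 286 and 284 CPM with DMSO, at 752 and 779 CPM with CCF642 and at 796 and 801 CPM with CCF642-34. It had the highest CPM of the 10 genes in every library. The log2 fold change was 1.57 (SE 0.038) with CCF642-34 and 1.55 (SE 0.038) with CCF642, at limma adjusted p of 1.48e-35 and 1.33e-35. ALDH1L2 was at 47.9 and 48.6 CPM with DMSO, at 127 and 135 CPM with CCF642 and at 142 and 145 CPM with CCF642-34. The treated libraries were all high, with those of CCF642-34 above those of CCF642. The log2 fold change of ALDH1L2 was 1.64 (SE 0.055) and 1.55 (SE 0.055), at limma adjusted p of 1.22e-29 and 8.06e-29.

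Asparagine synthetase, ASNS, makes asparagine from aspartate with nitrogen from glutamine, and its promoter is a textbook site of ATF4 binding. ASNS was at 91.6 and 93.2 CPM with DMSO, at 264 and 258 CPM with CCF642 and at 260 and 265 CPM with CCF642-34. The libraries of the 2 compounds overlapped and all were above DMSO. ASNS rose by a log2 fold change of 1.58 (95% interval 1.49 to 1.68) with CCF642-34 and 1.62 (1.53 to 1.71) with CCF642, at limma adjusted p of 2.40e-32 and 5.37e-33. In GENCODE release 29, 79.7% of ASNS exon bases are also exons of AC079781.5 on the same strand, so which of these genes the reads came from is uncertain there.

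The composite element that ATF4 and C/EBP factors bind, TGATGNAA on either strand, was sought in the promoter windows of RefSeq, which span 300 bases around each gene start. It was present in 3.62% of 35116 windows and, among the 7 windows found for 6 of the 10 genes, in 1 window of ASNS only, beginning 68 bases before the start. The matched letters are in capitals in the 250 bases upstream of that start (chr7:97872409-97872658, minus strand, GRCh38.p14), which are shown because this is the member promoter that held the element.
ASNS: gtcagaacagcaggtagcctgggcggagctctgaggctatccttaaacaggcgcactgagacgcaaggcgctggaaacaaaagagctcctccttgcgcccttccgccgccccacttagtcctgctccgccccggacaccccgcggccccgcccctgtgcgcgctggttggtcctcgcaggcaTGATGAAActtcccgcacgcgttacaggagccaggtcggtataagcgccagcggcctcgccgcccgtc

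CTH, cystathionine gamma-lyase, releases cysteine in the last step of the transsulfuration pathway, and cysteine feeds glutathione. CTH was at 6.70 and 6.59 CPM with DMSO (154 and 141 reads), at 60.6 and 59.5 CPM with CCF642 (1247 and 1345 reads) and at 49.0 and 45.6 CPM with CCF642-34 (1395 and 1268 reads). It was the lowest of the 10 genes with DMSO, and its 3 groups did not overlap, with CCF642 the highest. CTH showed the largest log2 fold change of the 10 genes, 2.74 (95% interval 2.57 to 2.91) with CCF642-34 and 3.12 (2.95 to 3.30) with CCF642, at limma adjusted p of 1.11e-30 and 2.93e-33. In mean CPM the ratio to DMSO was 7.12 and 9.04. The 250 bases upstream of the CTH start (chr1:70411018-70411267, plus strand, GRCh38.p14) are shown because CTH changed most and separated the compounds, and they held no motif searched here.
CTH: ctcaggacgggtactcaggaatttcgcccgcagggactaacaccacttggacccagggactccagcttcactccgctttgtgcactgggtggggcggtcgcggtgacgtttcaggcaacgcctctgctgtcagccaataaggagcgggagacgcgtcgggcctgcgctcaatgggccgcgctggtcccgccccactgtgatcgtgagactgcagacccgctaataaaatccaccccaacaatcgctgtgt

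The 2 proline synthesis enzymes moved in opposite directions. ALDH18A1, the pyrroline-5-carboxylate synthase that commits glutamate to proline and ornithine, was at 103 and 109 CPM with DMSO, at 65.4 and 68.2 CPM with CCF642 and at 58.0 and 58.2 CPM with CCF642-34. It was high only in the DMSO libraries and lowest with CCF642-34. ALDH18A1 fell by 0.77 on the log2 scale (SE 0.059) with CCF642-34 and by 0.52 (SE 0.059) with CCF642, at limma adjusted p of 1.37e-15 and 1.19e-10.

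PYCR1, the mitochondrial reductase that completes proline, was at 50 and 52.1 CPM with DMSO, at 93.4 and 81.7 CPM with CCF642 and at 90.2 and 90 CPM with CCF642-34. The treated libraries were all above DMSO, and the wider CCF642 pair enclosed the CCF642-34 pair. Its log2 fold change was 0.90 (SE 0.062) with CCF642-34 and 0.90 (SE 0.062) with CCF642, at limma adjusted p of 2.81e-17 and 1.77e-17. The E-box CACGTG, the element of MYC and its partner MAX, was searched for after the sequences had been seen. It was present in 7.26% of the 35116 windows and, among the windows of the 10 genes, in that of ALDH18A1 only, beginning 136 bases before the start. It is in capitals in the 250 bases upstream of ALDH18A1 (chr10:95656712-95656961, minus strand, GRCh38.p14), shown because ALDH18A1 was the gene that fell.
ALDH18A1: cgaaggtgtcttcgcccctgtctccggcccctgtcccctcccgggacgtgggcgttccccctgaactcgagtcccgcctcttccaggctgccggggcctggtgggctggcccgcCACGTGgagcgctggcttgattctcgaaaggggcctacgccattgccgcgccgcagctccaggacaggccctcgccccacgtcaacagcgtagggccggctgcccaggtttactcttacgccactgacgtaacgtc

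**Figure D2:**
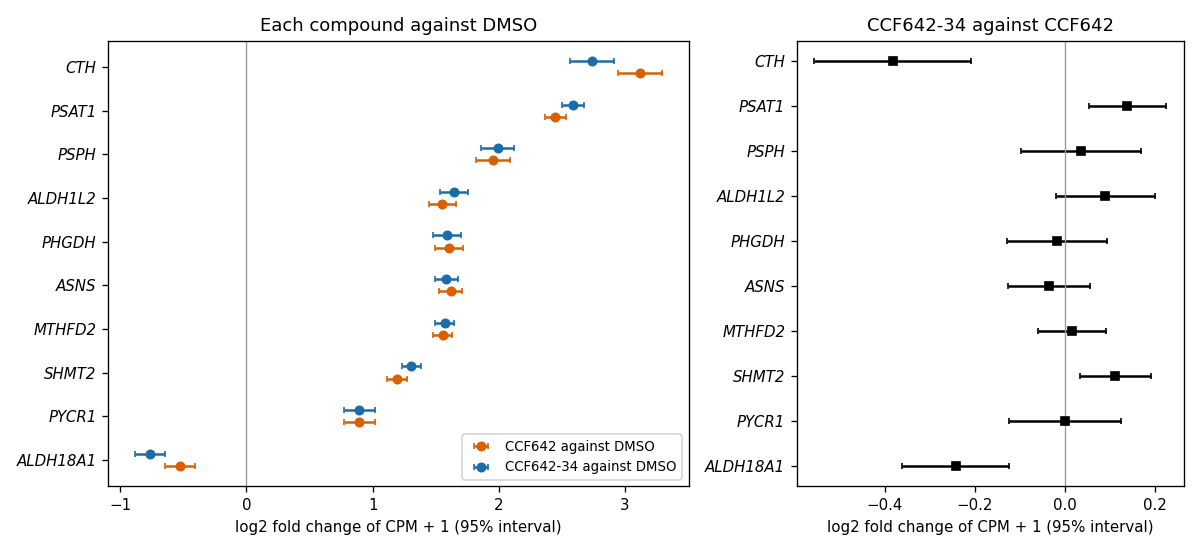
Log2 fold change of CPM + 1 with its 95% interval (horizontal axis) for each of the 10 genes (rows), for each compound against DMSO in the left panel and for CCF642-34 against CCF642 in the right panel. CTH and PSAT1 lie farthest to the right of 0 and ALDH18A1 lies to the left of 0 in the left panel, and the intervals of CTH, PSAT1, SHMT2 and ALDH18A1 do not reach 0 in the right panel.

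The compounds were compared directly at the same dose and time, as a single pair. In CCF642-34 libraries relative to CCF642 libraries, PSAT1 and SHMT2 were higher and CTH and ALDH18A1 were lower, 2 and 2 of the 10 genes at an adjusted p under 0.05 (limma), where 15.9% of all genes were called higher and 17.4% lower. None of the 10 differed by 2-fold, as 0.00905% of all genes did upward and 0.299% downward. PSAT1 was 0.14 higher on the log2 scale with CCF642-34 (95% interval 0.05 to 0.23, limma adjusted p 0.0095). SHMT2 was 0.11 higher (0.03 to 0.19, limma adjusted p 0.0227). These calls rest on few libraries. The count of higher genes dropped to 1 when CCF642 replicate 2 was omitted, to 1 when CCF642-34 replicate 1 was omitted and to 0 when CCF642-34 replicate 2 was omitted, and SHMT2 was not called in any of these 3 fits.

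CTH was lower with CCF642-34 than with CCF642 by -0.38 on the log2 scale (95% interval -0.56 to -0.21, limma adjusted p 0.000461), a ratio of mean CPM of 0.788. ALDH18A1 was lower by -0.24 (-0.36 to -0.12, limma adjusted p 0.00121), a ratio of 0.869. Both calls held without any single library. The other 6 genes were not called. Their intervals on the log2 scale were -0.13 to 0.06 for ASNS, -0.13 to 0.09 for PHGDH, -0.10 to 0.17 for PSPH, -0.06 to 0.09 for MTHFD2, -0.02 to 0.20 for ALDH1L2 and -0.12 to 0.12 for PYCR1, so small differences are not excluded for any of them and each interval stays short of 2-fold. In CPM without TMM scaling, the CCF642-34 libraries lay wholly above the CCF642 libraries for 5 genes (PSAT1, PSPH, SHMT2, MTHFD2 and ALDH1L2). They lay wholly below for CTH and ALDH18A1, where 39.7% and 25.4% of all genes lay wholly above and below. The TMM factors were 0.962 and 0.957 with CCF642 and 0.987 and 0.992 with CCF642-34. In the scaled fit PSPH, MTHFD2 and ALDH1L2 differed by 0.04, 0.02 and 0.09 on the log2 scale. The CCF642-34 libraries were also the deepest, at 28459677 and 27797578 reads against 20567313 and 22594137 with CCF642, and the part of depth in these differences was not tested.

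Per kilobase of exon, the order of levels changed with treatment. With DMSO the order ran from SHMT2 at 88.9 CPM per kb through MTHFD2 at 64.0, PSAT1 at 38.0, ASNS at 37.1, ALDH18A1 at 31.5, PYCR1 at 22.2, PHGDH at 20.7, PSPH at 11.7 and ALDH1L2 at 6.40 to CTH at 3.10 CPM per kb. In this order only the libraries of PYCR1 and PHGDH overlapped between neighbours. With CCF642-34, PSAT1 led at 217 CPM per kb, followed by SHMT2 at 207 and MTHFD2 at 179, while ALDH18A1 came last at 17.3 CPM per kb and no neighbours overlapped. With CCF642, PSAT1 at 191 and SHMT2 at 186 CPM per kb overlapped at the top, MTHFD2 followed at 172, and ALDH18A1 at 19.9 stood next to last, above ALDH1L2 at 17.4 CPM per kb. Exon lengths were those of the protein-coding transcripts in GENCODE release 29, merged per gene. This release is not stated to be the annotation of the authors. The part of ASNS length that it shares with AC079781.5 bears on its place in the order. The place of MTHFD2 also depends on its merged length of 4456 bases, against 3029 for SHMT2, and 29.7% of its exon bases lie opposite SLC4A5. The overlap of libraries does not cover errors of length.

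Serine and folate enzymes outside the 10 genes moved in both directions. SHMT1, the cytosolic counterpart of SHMT2, was at 54.2 and 55.9 CPM with DMSO, at 48.2 and 48.5 CPM with CCF642 and at 53.4 and 49.0 CPM with CCF642-34. It was not called with either compound, at log2 fold changes of -0.02 with CCF642-34 and -0.05 with CCF642. The ratio of SHMT2 to SHMT1 per kb was 4.55 and 4.55 with DMSO, 11.2 and 10.5 with CCF642 and 11.1 and 11.8 with CCF642-34, higher in all 4 treated libraries.

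MTHFD1L, which makes formate in mitochondria, rose by a log2 fold change of 0.75 (SE 0.062) with CCF642-34 and 0.72 (SE 0.062) with CCF642, at limma adjusted p of 1.51e-14 and 3.50e-14. MTHFD1, the trifunctional cytosolic enzyme that takes up formate, fell by 0.42 (SE 0.059) and 0.48 (SE 0.059) on the log2 scale, at limma adjusted p of 3.10e-08 and 1.42e-09. The ratio of MTHFD1L to MTHFD1 per kb was 0.915 in each DMSO library, 2.10 and 2.14 with CCF642 and 2.17 and 2.0 with CCF642-34. MTHFD2L, an isozyme of MTHFD2, was low at 6.66 and 7.66 CPM with DMSO, 6.56 and 4.56 CPM with CCF642 and 7.13 and 6.01 CPM with CCF642-34 and was not called.

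In the folate list, 4 of the 13 listed genes rose and 6 fell with CCF642-34, and 3 rose and 6 fell with CCF642, where 29.7% and 27.9% of all genes were called higher and lower with CCF642-34 and 31.8% and 31.3% with CCF642. MTFMT, which formylates the mitochondrial initiator tRNA, fell by 0.37 and 0.69 on the log2 scale and GGH, a folate hydrolase of the lysosome, fell by 0.35 and 0.57. The CCF642-34 call of MTFMT was lost without DMSO replicate 2 and without CCF642-34 replicate 2 (limma adjusted p up to 0.149). SLC25A32, the mitochondrial folate carrier, was not called against DMSO, at -0.07 with CCF642-34 and 0.16 with CCF642, and 88.1% of its exon bases overlap another gene on the same strand.

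The purine and thymidylate enzymes, which use one-carbon units or make the ring that receives them, fell. With CCF642-34, 6 of the 7 genes fell and 0 rose, and with CCF642 all 7 fell, where 27.9% and 31.3% of all genes were called lower. PPAT, the amidotransferase that commits to purine synthesis, was at 97.0 and 93.3 CPM with DMSO, at 43.7 and 44.5 CPM with CCF642 and at 51.4 and 55.5 CPM with CCF642-34. It fell by 0.73 (SE 0.064) with CCF642-34 and 0.96 (SE 0.064) with CCF642 on the log2 scale, at limma adjusted p of 6.96e-14 and 4.55e-18. PFAS, a later enzyme of the same pathway, fell by 0.63 and 0.48, and TYMS, thymidylate synthase, fell by 0.46 and 0.60. For TYMS, 58.2% of exon bases lie opposite ENOSF1, and whether strand was used in counting is not given in the sources used here.

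**Figure D3:**
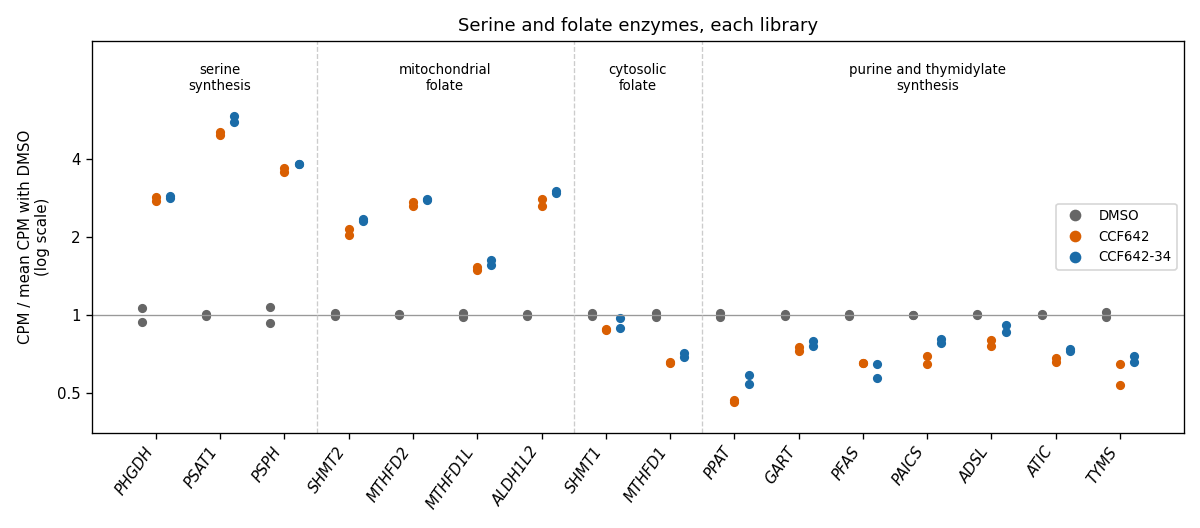
CPM of each library divided by the mean DMSO CPM (vertical axis, log scale, 1 marked by the line) for serine synthesis, purine and thymidylate genes and for some of the mitochondrial and cytosolic folate genes, with a point per library. PHGDH, PSAT1, PSPH, SHMT2, MTHFD2, MTHFD1L and ALDH1L2 lie above 1 in the 4 treated libraries, the cytosolic folate genes shown (SHMT1 and MTHFD1) lie below 1, and the 7 purine and thymidylate genes lie below 1. The values are CPM without TMM scaling. In the scaled fit SHMT1 was not called with either compound, and the purine gene ADSL was not called with CCF642-34.

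Serine and glycine genes downstream of synthesis were mixed, with 2 of the 9 listed genes higher and 4 lower with each compound. The higher share was near that of all genes, which was 29.7% with CCF642-34 and 31.8% with CCF642, and the lower share of all genes was 27.9% and 31.3%. SFXN1, which carries serine into mitochondria, was at 143 and 143 CPM with DMSO, at 71.5 and 76.1 CPM with CCF642 and at 77.9 and 82.5 CPM with CCF642-34. It fell by 0.74 and 0.81 on the log2 scale with CCF642-34 and CCF642. Of the glycine cleavage system, which breaks glycine into a one-carbon unit, GCSH fell by 0.65 and 0.90 and GLDC by 0.31 and 0.56, while DLD, a subunit it shares with other dehydrogenases, rose by 0.21 and 0.29. SDSL, a serine dehydratase-like gene of 2.26 to 5.58 CPM, rose by 0.95 and 0.57. The CCF642-34 call of GCSH was lost without CCF642-34 replicate 2 (limma adjusted p 0.0563), and the CCF642 call of SDSL was lost without DMSO replicate 1 and without CCF642 replicate 1 (limma adjusted p up to 0.0539).

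Around CTH, the methionine cycle and transsulfuration list had 3 of 12 genes higher and 4 lower with CCF642-34, and 2 higher and 5 lower with CCF642. With CCF642-34 these shares were close to the 29.7% higher and 27.9% lower among all genes, and with CCF642 those of all genes were 31.8% and 31.3%. CBS, which makes the cystathionine that CTH cleaves, was at 1.04 and 1.68 CPM with DMSO, at 5.59 and 3.98 CPM with CCF642 and at 5.73 and 4.46 CPM with CCF642-34. All treated libraries were above DMSO, at a log2 fold change of 1.43 (SE 0.187) with CCF642-34 and 1.38 (SE 0.187) with CCF642, limma adjusted p 7.42e-09 and 1.19e-08. CBS had few reads with DMSO, 24 and 36 in replicates 1 and 2. In the GENCODE gene models used here, CBS shares 86.9% of its 50-base stretches with its copy CBSL. These models belong to another genome build than the one the authors named. Whether the authors' annotation held CBSL is not given in the sources used here, and an effect of CBSL on the CBS reads was not tested. MAT2A, which makes the methyl donor S-adenosylmethionine, was at 245 and 241 CPM with DMSO, at 97.9 and 92.4 CPM with CCF642 and at 84.9 and 84.0 CPM with CCF642-34. It fell by 1.42 and 1.21 on the log2 scale, at limma adjusted p of 1.70e-28 and 7.18e-26.

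Around proline, 1 of 4 listed genes rose and 2 fell with CCF642-34, and 1 rose and 3 fell with CCF642, where the shares of all genes were 29.7% and 27.9% with CCF642-34 and 31.8% and 31.3% with CCF642. OAT, which links ornithine to the proline route, fell by 0.49 and 0.40 on the log2 scale with CCF642-34 and CCF642, and ALDH4A1, which oxidizes proline-derived carbon, fell by 0.52 and 0.42. ARG2, the mitochondrial arginase, rose by 0.38 and 0.61, at 4.65 to 7.93 CPM over all libraries. For ARG2, 44.2% of exon bases lie opposite VTI1B, and whether strand was used in counting is not given in the sources used here. For ALDH4A1, 42.6% of exon bases overlap AL080251.1 on the same strand. The CCF642-34 call of ARG2 was lost in 5 of 17 alternatives, with library size alone, with DESeq2 and without DMSO replicate 1, CCF642-34 replicate 1 or CCF642-34 replicate 2 (adjusted p up to 0.172). ALDH4A1 was not called with CCF642-34 without CCF642-34 replicate 2 (-0.28, limma adjusted p 0.150), nor with CCF642 without DMSO replicate 2 or without CCF642 replicate 2 (-0.22 in the latter, limma adjusted p 0.170).

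Among enzymes that pass nitrogen between aspartate, glutamate, alanine and the branched-chain amino acids, 5 of 12 rose and 6 fell with CCF642-34, and 4 rose and 3 fell with CCF642, whose shares were near those of all genes (31.8% and 31.3%), which with CCF642-34 were 29.7% and 27.9%. GPT2, the mitochondrial alanine aminotransferase, was at 46.1 and 46.4 CPM with DMSO, at 165 and 161 CPM with CCF642 and at 173 and 173 CPM with CCF642-34. Its log2 fold change of 1.97 (SE 0.052) with CCF642-34 and 1.93 (SE 0.052) with CCF642, limma adjusted p 7.67e-34 and 9.60e-34, was of the size of that of PSPH. BCAT1, a cytosolic branched-chain aminotransferase, rose from 0.217 and 0.794 CPM (5 and 17 reads) with DMSO to 4.42 and 4.87 CPM with CCF642 and 4.43 and 3.81 CPM with CCF642-34. BCAT2, its mitochondrial isozyme, fell by 0.50 and 0.56 on the log2 scale with CCF642-34 and CCF642.

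Over the 6 lists, 56 of 65 genes were listed, with SHMT1 in 2 of the lists. ALDH1L1, the cytosolic counterpart of ALDH1L2, was not among them. Of these 56, 15 rose, 28 fell and 13 did not pass with CCF642-34, and 12 rose, 28 fell and 16 did not pass with CCF642. Among all genes 29.7% rose and 27.9% fell with CCF642-34, and 31.8% rose and 31.3% fell with CCF642. A fold change of at least 2 was reached upward by 3 and downward by 1 with each compound, as by 2.59% and 1.29% of all genes with CCF642-34 and 4.5% and 1.99% with CCF642. BCAT1, listed only through its treated libraries, is among the genes counted here as rising and as rising at least 2-fold. The median log2 change of the 56 genes was -0.16 with CCF642-34 and -0.19 with CCF642. In the direct comparison 12 were higher and 4 lower with CCF642-34, and 40 did not pass, where 15.9% of all genes were higher and 17.4% lower.

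**Figure D4:**
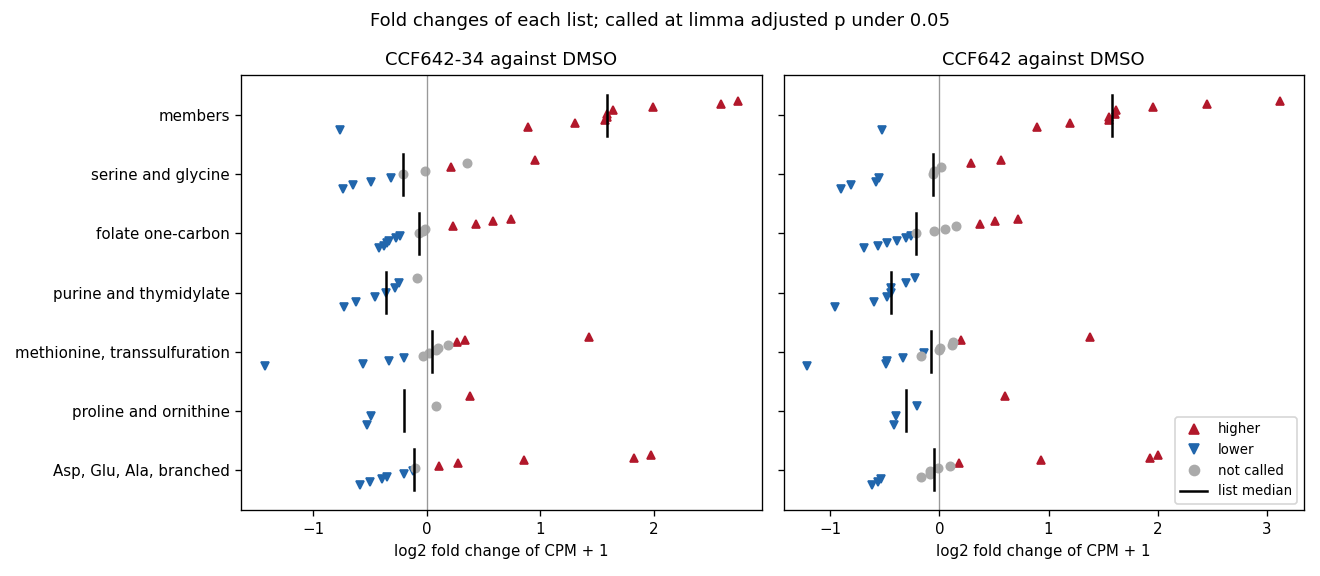
Log2 fold change of CPM + 1 against DMSO (horizontal axis) for the 10 amino acid synthesis genes (row "members") and the 6 lists of related genes, with a mark per gene, up and down triangles for genes called at a limma adjusted p under 0.05 and a line at each list median. The line of the 10 genes stands at 1.59 with CCF642-34 and 1.58 with CCF642, and the lines of the other lists lie between -0.44 and 0.05.

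ATF4 itself was at 411 and 428 CPM with DMSO, at 1101 and 1060 CPM with CCF642 and at 1125 and 1103 CPM with CCF642-34. Its mRNA rose by a log2 fold change of 1.5 (SE 0.037) with each compound, at limma adjusted p of 3.93e-35 with CCF642-34 and 2.28e-35 with CCF642, and the direct interval was -0.07 to 0.07. Some 17.9% of the 50-base stretches of ATF4 occur in other genes, among them the pseudogene ATF4P3. MYC was at 452 and 465 CPM with DMSO, at 99.4 and 103 CPM with CCF642 and at 181 and 181 CPM with CCF642-34. It fell by 1.25 on the log2 scale with CCF642-34 and by 2.04 with CCF642, and it was 0.79 higher with CCF642-34 than with CCF642 (95% interval 0.70 to 0.88, limma adjusted p 1.77e-19).

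Among genes outside the 10, those whose profile over the 6 libraries lay nearest to the median profile of the 10 genes, by Euclidean distance of log2 values centred on DMSO, were DUSP16 (distance 0.05), SEC24D (0.14), CARS (0.15), STK40 (0.18) and ATF4 (0.19). DUSP16 encodes a phosphatase of stress-activated kinases, SEC24D a coat protein of vesicles that leave the ER, CARS the cysteinyl-tRNA synthetase and STK40 a serine/threonine kinase-like protein. CARS was at 95.7 and 101 CPM with DMSO, at 287 and 292 CPM with CCF642 and at 274 and 273 CPM with CCF642-34. SEC24D was at 193 and 185 CPM with DMSO, at 501 and 526 CPM with CCF642 and at 499 and 515 CPM with CCF642-34. These genes were chosen for this likeness, so their values are a description.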

How the data were processed

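Poly(A)-enriched mRNA of MM1.S cells was sequenced from 2 libraries each of DMSO, 3 µM CCF642 and 3 µM CCF642-34 at 6 h. The authors deposited CPM values for 11048 gene symbols per library, without log transformation; per the labels' processing notes STAR, edgeR 3.24.3, limma 3.38.3 and hg19 were named, and the annotation, the counting tool and the use of strand are not given in the sources used here. A series table of the same values was not used. The library totals were estimated from the CPM values themselves, from the step in CPM that corresponds to a single read. Multiplied by this total each value gave a whole read number (100% of values, tolerance 0.001 reads). The wholeness is therefore no independent check of the totals. The listed genes held 99.9% of each library.

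CPM values were scaled by TMM (edgeR 4.0.16), increased by a pseudocount of 1, converted to log2 and fitted with limma 3.58.1 in R 4.3.3, with trend, over all genes and 6 libraries (3 residual degrees of freedom, 45.9 with the prior). All 3 comparisons were tested in both directions (two-sided). The edgeR quasi-likelihood test on the recovered reads, an alternative, called 3324 genes higher and 3116 lower with CCF642-34 against DMSO, 3498 and 3434 with CCF642 against DMSO, and 1764 and 1960 between the compounds. Other alternatives were DESeq2 1.42.0, limma-voom, other scalings, pseudocounts and filters, a replicate block, models restricted to the groups under comparison and omission of each library in turn. Only the main limma fit was run on simulated data, for CCF642-34 against DMSO. The simulation held far fewer changed genes than were called here, and the alternatives were not run on it.

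Same-numbered libraries shared no strong deviation from their group means, with correlations of -0.03, -0.06 and 0.09 over 9841 genes. With 2 libraries a group this cannot tell whether same-numbered libraries were handled together. The 10 genes and the lists were chosen with earlier results of these data known. Named genes were the 10, their isozymes, ATF4 and MYC, the 2 largest called increases and decreases of each list with each compound, the largest called differences between the compounds in each list, and the 5 nearest profiles, 46 in all, and a few genes that the rule takes are not reported here. Gene models were those of GENCODE release 29, which held all 10, and promoter sequences those of RefSeq on GRCh38.p14. PSPH, SHMT2, ALDH1L2 and PYCR1 had no window in the table.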

Additional observations from a re-analysis of the deposited data

How the results depend on the processing

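With 17 alternatives for each of the 10 genes, all 170 log2 fold changes against DMSO kept their direction and call for CCF642-34, and all 170 for CCF642. Between the compounds, 155 of 170 did so, 4 lost the call (PSAT1 in 1 fit and SHMT2 in 3, each without 1 library), 1 gained it (ALDH1L2 with library size alone, 0.13, limma adjusted p 0.04996) and 10 changed sign at values near 0. The count of the 10 genes higher with CCF642-34 than with CCF642 was 0 to 2 over the 6 fits without single libraries, where 2 were called with all, and it dropped when CCF642 replicate 2 (1 gene) or either CCF642-34 replicate (1 and 0 genes) was omitted. Of 608 values of the other named genes in each comparison, the call was lost in 20 with CCF642-34 against DMSO, 10 with CCF642 against DMSO and 16 between the compounds, and gained in 0, 5 and 13. The gained calls with CCF642 against DMSO were SHMT1, MTHFD2L, ENOPH1 and GLUD1 as lower and SLC25A32 as higher, each in 1 alternative. DESeq2 called 2 of the 56 related genes lower between the compounds, where limma called 4. With the replicate block, the counts for the 10 genes were 9 higher and 1 lower against DMSO with each compound and 2 and 2 between compounds, and those for the 56 related genes were 17 and 28, 12 and 28, and 13 and 5. With 2 libraries a group the numbers were not shown to pair samples.

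Sign changes between the compounds were as follows. PYCR1 was -0.0079 with DESeq2 size factors, -0.0010 with a mean CPM of at least 5, -0.0014 with edgeR and -0.010 with DESeq2, and ATF4 was -0.0076, -0.00070 and -0.0076 with the first, second and last of these. With library size alone ASNS was 0.0087 and PHGDH 0.027, and with DESeq2 the median of the 10 genes was -0.0011. Without single libraries PYCR1 ranged from -0.091 to 0.092, ATF4 from -0.022 to 0.024, PHGDH from -0.034 to 0.0019, MTHFD2 from -0.013 to 0.046, MTHFD2L from -0.038 to 0.40, SHMT1 from -0.028 to 0.10, MTHFD1L from -0.0054 to 0.062, CBS from -0.16 to 0.24, MTAP from -0.18 to 0.014 and ALDH4A1 from -0.35 to 0.14. Against DMSO with CCF642-34, SHMT1 without single libraries ranged from -0.080 to 0.049, MTHFD2L from -0.14 to 0.081 and SLC25A32 from -0.15 to 0.0060. With CCF642 the ranges were -0.045 to 0.034 for ENOPH1, -0.43 to 0.0070 for MTHFD2L and -0.34 to 0.011 for GLS2. The cause of these changes was not tested.

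Library size alone moved the median of all genes to -0.08 with CCF642-34, -0.13 with CCF642 and 0.05 between compounds. The share of called genes that were higher went from 51.6% to 38.6%, from 50.4% to 34.8% and from 47.8% to 61.8%. Between the compounds, 1044 genes were higher without CCF642-34 replicate 1 and 1168 without replicate 2, against 1760, and DESeq2 gave 1192 genes. The log2 scale with a pseudocount of 1 lowers the fold change of genes with few reads, such as CBS and BCAT1.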
